A study of Homo sapiens with 12 samples.

Results

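Heat shock proteins of the cytosol and mitochondria fold newly made and stress-damaged proteins, and the 10 genes described here were chosen by name as the main such chaperones and their partners: HSPA8, HSPA1A, HSPA1B, DNAJB1, HSPH1, HSP90AA1, HSP90AB1, HSPB1, HSPD1 and HSPE1. All 10 were among the 59276 features of the table. They were measured by RNA-seq of total RNA from MM1S, a human multiple myeloma cell line, in 12 libraries. The cells were sampled at day 0 and after exposure to NGI-1 (10 μM) for 2, 3 or 5 days, with 3 libraries per time. NGI-1 blocks the oligosaccharyltransferase (OST) complex, the enzyme of the endoplasmic reticulum that attaches N-linked sugars to proteins. The day 0 libraries also carry the treatment label NGI-1, while the study calls these cells untreated. All libraries come from this one line. The 3 treated groups were compared with the same day 0 libraries, as no later untreated group is labelled.

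HSP70 proteins such as HSPA8 and HSPA1B hold unfolded protein in an ATP-driven cycle that DNAJB1, a J-domain protein, starts and HSPH1, a nucleotide exchange factor, resets. HSP90 proteins act later on kinases, receptors and other clients, the small heat shock protein HSPB1 holds unfolding protein without ATP, and HSPD1 with its lid HSPE1 forms the folding chamber of mitochondria. Plasma cells and myeloma cells make large amounts of secreted antibody, and heat shock factor 1 (HSF1) is the main activator of the inducible members of this family.

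HSF1 binds repeats of a short unit, and the RefSeq promoters of the 10 genes (GRCh38.p14) were searched in the 250 bases before each annotated start for units paired head to head or tail to tail, GAANNTTC or TTCNNGAA, each of which reads the same on both strands. A pair was found for 8 of the 10 genes, against 13.96% of 27305 genes in the same table, and a form of 3 alternating units, which holds overlapping pairs, for 4 of the 10, against 0.557%. The 4 were HSPA8, HSP90AA1, HSP90AB1 and HSPD1. No pair lay in the windows of HSPH1 and HSPE1, which says only that these letters are absent there. The stretches below were picked with the transcript levels known and include genes whose transcripts later moved apart. Those of HSPA8, HSPB1 and DNAJB1 are not printed, and no link between these letters and the levels was tested. Paired units are in capitals, with overlapping pairs run together.
HSPA1A, chr6:31815407-31815474, plus strand: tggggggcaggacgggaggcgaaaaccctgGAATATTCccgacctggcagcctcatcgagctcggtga
HSPA1B, chr6:31827603-31827670, plus strand: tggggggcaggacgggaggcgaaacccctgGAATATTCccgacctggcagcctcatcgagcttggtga
HSP90AA1, chr14:102087075-102087162, minus strand: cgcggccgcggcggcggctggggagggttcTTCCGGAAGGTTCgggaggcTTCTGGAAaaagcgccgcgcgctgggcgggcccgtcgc
HSP90AB1, chr6:44247748-44247873, plus strand: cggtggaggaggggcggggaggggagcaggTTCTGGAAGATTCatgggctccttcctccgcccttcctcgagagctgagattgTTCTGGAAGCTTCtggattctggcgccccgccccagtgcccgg
HSPD1, chr2:197500038-197500090, minus strand: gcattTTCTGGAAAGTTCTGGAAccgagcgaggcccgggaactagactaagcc
HSPD1 and HSPE1 stand head to head on chromosome 2, with the RefSeq start of HSPE1 at base 197500379 lying 105 and 539 bases from the starts given for HSPD1. The HSPD1 units printed above lay 294 to 311 bases before the start of HSPE1, outside its window of 250 bases. They lay upstream of one RefSeq start of HSPD1 and downstream of the other, and inside both genes as GENCODE 29 places them. HSP90AA1 and HSP90AB1 both held the 3-unit form, before their RefSeq starts at bases 102087044 and 44247943. No pair lay before any other RefSeq start of these 2 genes. Counted by window rather than by gene, a pair lay in 8 of 16, against 11.6% of 35116. A match is a description of letters, not of binding.

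The values are TPM, a length-corrected share of the transcripts sequenced in a library, which the authors deposited as log2(TPM + 1). Levels of different genes can be compared on this scale, but a TPM keeps no read counts, so the counting error is unknown and the spread over the 3 libraries of a group is the error given. Fewer cells of a kind and less RNA per cell cannot be told apart in such bulk samples. Within groups, Pearson's r across features lay between 0.992 and 0.996, and no pair of libraries held identical values. All 10 plasma cell and myeloma markers checked had a mean TPM of at least 1 in every group, with a summed TPM of 12150 to 14301 at day 0 and 19971 to 21264 at day 5. The rise of that sum lay mainly in JCHAIN (mean 9697 TPM at day 0 and 17339 at day 5), while 6 of the 10 markers had a lower mean at day 5 than at day 0, among them XBP1 (1547 and 366 TPM) and SDC1 (496 and 144 TPM). Of the 15 markers of T cells, myeloid cells, stroma and red cells, only CD3E reached a mean TPM of 1. Transcripts of 87 ribosomal protein features took 28.5% to 29.6% of the TPM at day 0, 33.8% to 34.4% at day 2, 40.5% to 44.6% at day 3 and 47.8% to 49.5% at day 5, so the room left for all other transcripts shrank. For this reason each change is also given after rescaling, in which every library was divided by 1 factor that sets the median of 5433 well-expressed features level. The limma test covered 11939 features, those that reached 1 TPM in 3 or more libraries, and 9 of the 10 genes passed this filter. HSPA1A did not, and it is described by its levels. A gene was called when its log2 fold change was larger than 0.5 in either direction and its Benjamini-Hochberg adjusted p over all tested features was under 0.05.

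HSPA8, HSPE1, HSP90AA1, HSPD1 and HSP90AB1 were the abundant members, with mean levels of 800.3 to 2033 TPM at day 0. HSPA8 stood highest and HSP90AB1 lowest of these, and the libraries of HSP90AA1 and HSPE1 overlapped. The other 5 lay far below, from 80.0 TPM for DNAJB1 over 71.6 for HSPB1, 63.0 for HSPH1 and 43.8 for HSPA1B to 0.813 for HSPA1A, and among them the libraries of HSPB1 overlapped those of DNAJB1 and of HSPH1. At day 5 the order had changed, and HSPE1 (1440 TPM) and HSP90AA1 (971 TPM) stood above HSPA8 (333 TPM), HSPD1 (218 TPM) and HSP90AB1 (192 TPM). No library of HSPE1 or HSP90AA1 overlapped any library of these 3 genes at that day, while those of HSPD1 and HSP90AB1 overlapped each other.

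**Figure D1:**
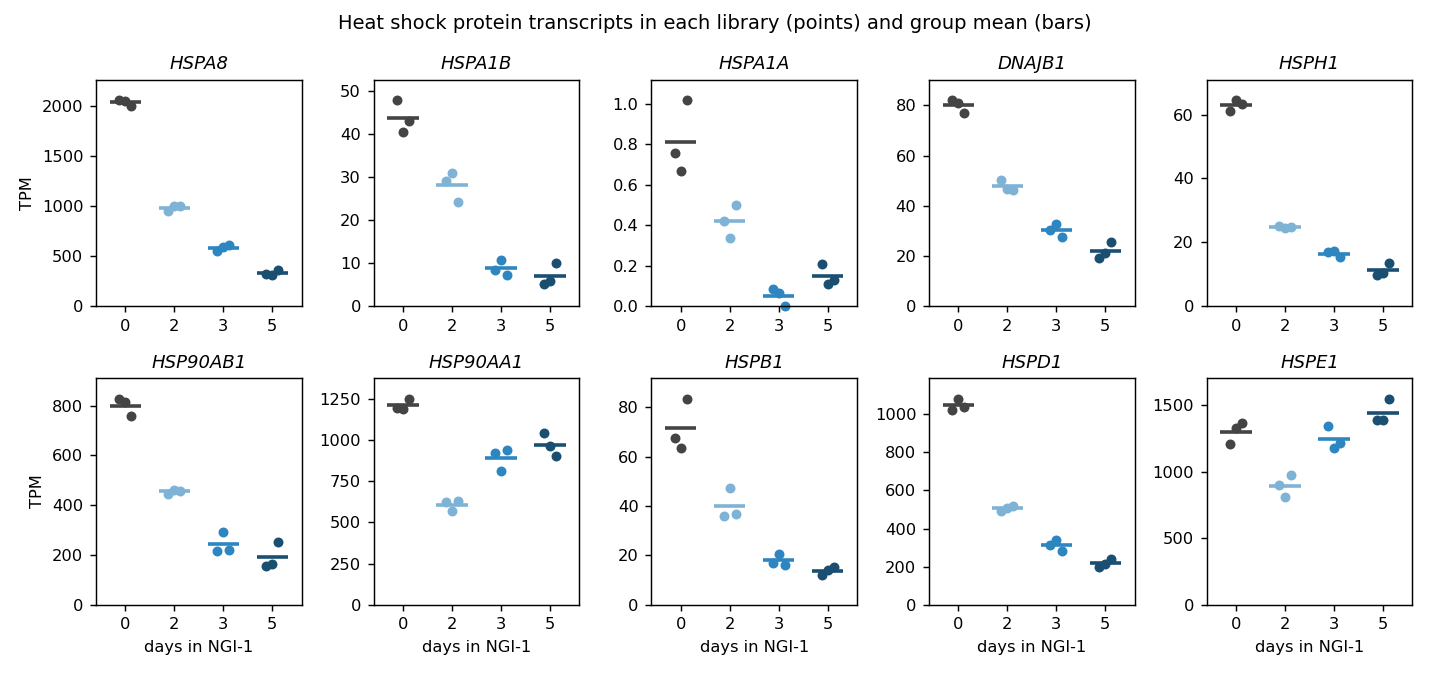
TPM of the 10 heat shock protein genes (y axis, from 0, a separate scale for each gene) by days in NGI-1 (x axis); points are libraries, 3 per group, and bars are group means. Most genes step down from day 0 to day 5, for example HSPA8 from 2033 to 333 TPM, whereas HSP90AA1 and HSPE1 are lowest at day 2 and higher again at days 3 and 5.

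Together the 10 genes took 0.665% ± 0.00734 (SD, n = 3) of the TPM at day 0, 0.359% ± 0.0110 at day 2, 0.335% ± 0.00666 at day 3 and 0.321% ± 0.0146 at day 5 (n = 3 each). The lowest day 0 library had 0.657% and the highest treated library 0.371%. On this total, most of the difference was thus in place at day 2, whereas the mix kept shifting. These sums were not rescaled. Ribosomal protein transcripts took 33.8% to 34.4% of the same total at day 2 and 47.8% to 49.5% at day 5. Whether the sum fell further after day 2 thus depends on the total used. HSPA8 made up 30.6% of the summed TPM of the 10 genes at day 0 and 10.4% at day 5. HSPE1 went from 19.5% to 44.9% and HSP90AA1 from 18.2% to 30.4%. HSPD1 went from 15.7% to 6.79% while HSP90AB1 ended at 5.93%. No test was made of these sums.

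**Figure D2:**
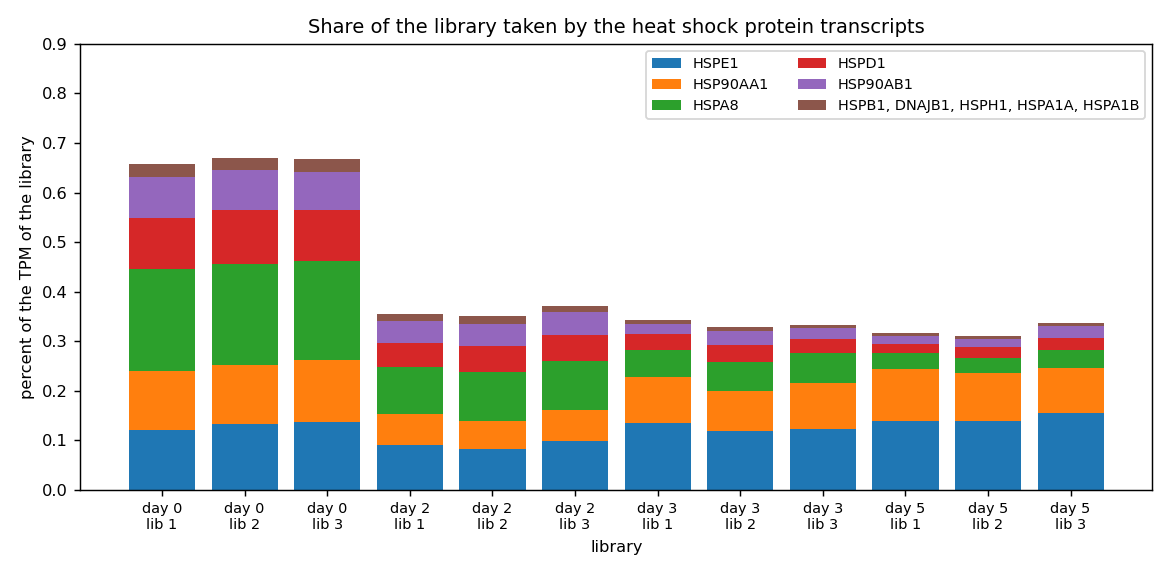
Percent of each library's TPM (y axis, from 0) taken by the heat shock protein transcripts in the 12 libraries (x axis), stacked by gene. The total is 0.657% or more in every day 0 library and at most 0.371% in every treated one, and the HSPE1 and HSP90AA1 segments fill most of the bars at day 5.

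After 2 days all 9 tested members were lower than at day 0 on the deposited scale, where 23.2% of all tested features were called lower and 8.03% higher. Their median log2 fold change was -0.82, against -0.18 for all tested features. After rescaling 6 of the 9 were lower (11.4% of all features) and none higher, and HSPA1B, DNAJB1 and HSPE1 were the 3 not called. After 3 days 7 members were lower and none higher, against backgrounds of 61.5% and 7.59%, with a median of -1.74 against -0.73 for all. After 5 days the count was again 7 lower and none higher, against 69.8% and 7.73%, with a median of -2.26 against -0.99. With so much of the table called lower, a count of 7 of 9 is near the background and the sizes say more than the count. HSP90AA1 and HSPE1 were the 2 not called at both times. After rescaling, 7 members were lower and 1, HSPE1, higher at day 3 (24.2% and 23.9% of all features). At day 5, 7 were lower and 2, HSPE1 and HSP90AA1, higher after rescaling (26.9% and 27.5%). A further setting took ribosomal protein and mitochondrial transcripts out of the total. There 7 members were lower at day 2 (14.6% of 13276 features tested), 8 at day 3 (39.8%) and 8 at day 5 (44.3%). The added gene at days 3 and 5 was HSPA1A, which then passed the filter, so that all members were tested. It was highest at day 0 (0.667 to 1.02 TPM, at most 0.499 TPM at day 2 and less later). As its day 0 level let it in, its call as lower adds no support.

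Between neighbouring days, 7 members were lower and 1, HSP90AA1, was higher at day 3 than at day 2, where 55.5% of features were lower and 3.22% higher. After rescaling only HSPA1B was still lower (13.6% of features), and HSP90AA1 and HSPE1 were higher (14.3%). HSPE1, at 0.48 on the deposited scale, was also called higher without day 2 library 3 (0.54) or without day 3 library 2 (0.52). From day 3 to day 5, 3 members were lower, HSPA8, HSPH1 and HSPD1, and none higher, against 13.1% and 0.67% of all features. After rescaling none was lower (2.03%) and HSPE1 was higher (4.43%). This last step rested on single libraries, as 6 members were called lower without day 5 library 3 and 1 without day 3 library 2 or without day 5 library 1. The share of all features called in these smaller fits is not given.

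**Figure D3:**
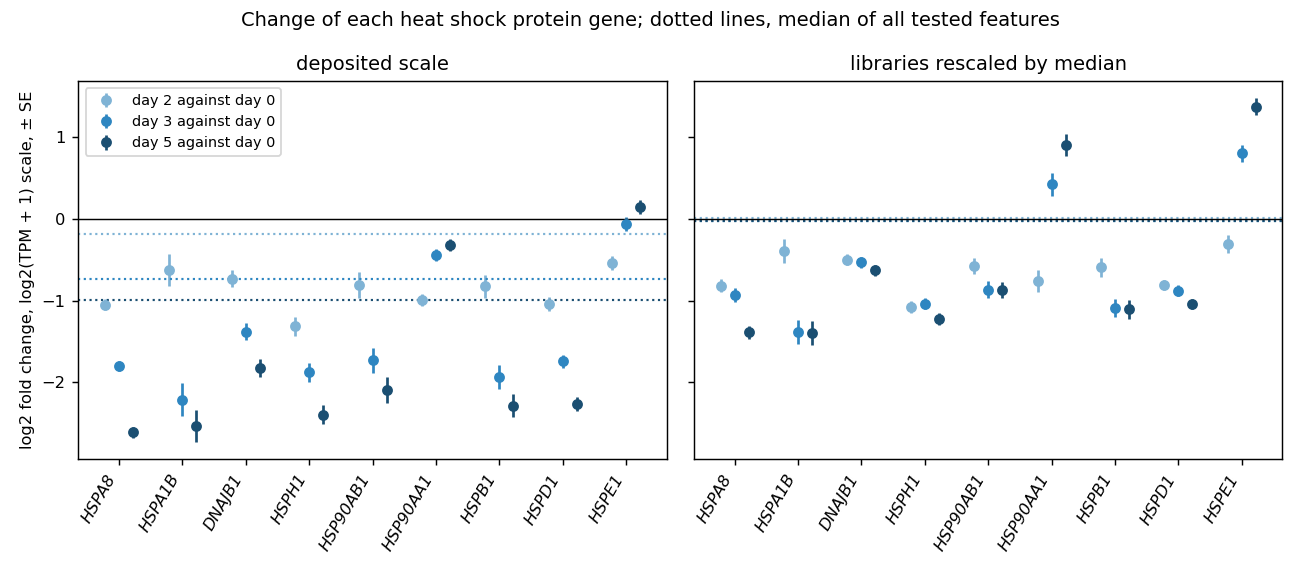
Log2 fold change against day 0 on the log2(TPM + 1) scale, with SE from limma (y axis), for the 9 tested genes (x axis) at days 2, 3 and 5, on the deposited scale (left) and after rescaling (right); dotted lines mark the median of all tested features. Points of 7 genes lie below the dotted line of their own day in both panels, while HSP90AA1 and HSPE1 lie below it at day 2 only.

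HSPA8, the constitutive HSP70 of the cytosol (chr11:123057489-123063230, minus strand, GENCODE 29 on GRCh38), read 2055, 2048 and 1998 TPM in the day 0 libraries. The day 2 libraries read 953, 998 and 998 TPM, those of day 3 554, 588 and 609 TPM, and those of day 5 321, 315 and 362 TPM. None of the 4 groups overlapped another in TPM, and each stood below the one before, but days 2 and 3 overlapped after rescaling. Its log2 fold change against day 0 was -1.05 (SE 0.066) at day 2, -1.80 at day 3 and -2.61 at day 5 (limma adjusted p = 7.1e-13 at day 5). After rescaling these were -0.81, -0.93 and -1.39, all called lower. At day 5 HSPA8 and HSPA1B had the 2 largest falls of the 9 tested members on the deposited scale (-2.61 and -2.53). Their order turned with a pseudocount of 0.1 (-2.61 and -2.69) and after rescaling (-1.386 and -1.394), so neither is ranked first. For HSPA8, 3.80% of all tested features lay lower still on the deposited scale. Its step from day 3 to day 5, -0.81, was called on the deposited scale and, at -0.45, not after rescaling.

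HSPA1A and HSPA1B, the stress-inducible HSP70 genes, lie side by side on chromosome 6 (31815464 to 31817946 and 31827735 to 31830255, plus strand). Their coding sequences were identical at 1922 of 1926 bases in GENCODE 29, and 73.6% of the 31-base words of HSPA1A transcripts also occurred in HSPA1B. How the reads were divided between the copies is therefore uncertain, and their sum is the safer value. HSPA1B read 47.9, 40.6 and 43.1 TPM in the day 0 libraries and 29.2, 30.9 and 24.3 TPM in those of day 2. The day 3 libraries read 8.39, 10.7 and 7.18 TPM, and those of day 5 5.14, 5.79 and 10.1 TPM. HSPA1A stayed at or below 1.02 TPM in every library and was listed at 0 in 1 library of day 3. Days 0, 2 and 3 did not overlap for HSPA1B, while days 3 and 5 did. HSPA1A held a mean of 1.83% of the summed TPM of both copies at day 0 and 0.545% to 2.34% in the treated groups.

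The summed level of both copies was 44.6 ± 3.75 TPM (SD, n = 3) at day 0, 28.5 ± 3.34 at day 2, 8.82 ± 1.84 at day 3 and 7.17 ± 2.69 at day 5 (n = 3 each). HSPA1B changed by -0.63 on the log2 scale at day 2, by -2.21 at day 3 and by -2.53 at day 5 (limma adjusted p = 0.0198, 2.8e-07 and 3.8e-08). The copies summed before the fit gave -0.63, -2.23 and -2.53. The call at day 2 was lost after rescaling (-0.40), and also without day 0 library 1 (-0.56) or without day 2 library 3 (-0.53). It was lost too without ribosomal protein and mitochondrial transcripts (-0.49) and, at an unchanged -0.63, with no filter on low values (limma adjusted p = 0.0765). The calls at days 3 and 5 stood after rescaling, at -1.39 both times. The main step of the inducible pair thus lay between days 2 and 3, at -1.59, the one such step of a member that was still called lower after rescaling (-0.99).

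DNAJB1, the J-domain partner of inducible HSP70 (chr19:14514770-14529770, minus strand), read 82.0, 80.9 and 77.0 TPM at day 0 and 50.4, 46.6 and 46.3 at day 2. It read 30.1, 32.6 and 27.7 TPM at day 3 and 19.4, 21.0 and 25.7 at day 5. All 4 groups were apart in TPM, but days 2 and 3 overlapped after rescaling. Its log2 fold changes were -0.73, -1.38 and -1.82, and those at days 3 and 5 were the mildest among the 7 genes called lower at both times. After rescaling they were -0.50, -0.53 and -0.63, the first just short of the fold threshold, so that relative to the median feature its level moved little after day 2.

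HSPH1, the HSP110 exchange factor (chr13:31134974-31162388, minus strand), read 61.2, 64.4 and 63.4 TPM at day 0 and 25.0, 24.4 and 24.8 at day 2. It read 16.9, 17.1 and 15.2 TPM at day 3 and 9.84, 10.4 and 13.7 at day 5. Again no groups overlapped in TPM, but days 2 and 3 did after rescaling. At -1.32 (SE 0.11, limma adjusted p = 8.7e-07) it had the largest fall of the 9 members at day 2, and -1.08 after rescaling. Only 2.70% of all tested features lay lower at that time. On the deposited scale it changed by -1.88 at day 3 and -2.39 at day 5. Its rescaled values at days 2, 3 and 5 were nearly level, at -1.08, -1.04 and -1.22. The day 3 to day 5 call of this gene (-0.52) was lost without any one of day 3 libraries 1 and 2 and day 5 libraries 1 and 2, with values from -0.43 to -0.49.

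HSP90AB1, the constitutive cytosolic HSP90 (chr6:44246166-44253888, plus strand), read 827, 813 and 760.4 TPM at day 0 and 447, 463 and 459 at day 2. It read 215, 294 and 219 TPM at day 3 and 157, 164 and 254 at day 5. Days 3 and 5 overlapped and the other groups did not. It changed by -0.81 (SE 0.16), -1.73 and -2.09 on the log2 scale against day 0 (limma adjusted p = 2.3e-08 at day 5), and by -0.58, -0.87 and -0.87 after rescaling, all called lower.

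HSP90AA1, the stress-inducible cytosolic HSP90 (chr14:102080738-102139699, minus strand), did otherwise. It read 1195, 1186 and 1249 TPM at day 0 and 621, 571 and 629 at day 2. At day 3 it read 921, 811 and 937 TPM and at day 5 1045, 963 and 906. Every treated library was below every day 0 library, every day 3 and day 5 library was above every day 2 library, and days 3 and 5 overlapped. The change at day 2 was -0.99 (limma adjusted p = 2.8e-07), and -0.76 after rescaling. From day 2 to day 3 the gene rose by 0.55 (limma adjusted p = 3.7e-05) on the deposited scale, and by 1.18 after rescaling. Against day 0 it stood at -0.45 on day 3 and -0.32 on day 5, neither past the fold threshold, and these signs turned after rescaling, to 0.42 (not called) and 0.91 (called higher). They also turned when ribosomal protein and mitochondrial transcripts were taken out of the total, to 0.03 and 0.40, neither called.

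Within a library the ratio of HSP90AA1 to HSP90AB1 does not depend on scaling. It was 1.44 to 1.64 at day 0, 1.23 to 1.39 at day 2, 2.76 to 4.28 at day 3 and 3.57 to 6.65 at day 5. All day 2 libraries were thus below day 0 and all later libraries above it. Over the 9 treated libraries against the 3 of day 0 the mean log2 ratio was 0.96 higher, which a two-sided exact permutation test (220 ways to choose 3 libraries) did not separate (p = 0.155, adjusted over 3 ratios 0.232). With 3 libraries against 3, a single day cannot be tested below a p of 0.10. Of the 31-base words of HSP90AA1 and HSP90AB1, 25.6% and 35.7% also occurred in another gene, so the division of reads is a limit here.

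HSPB1, also called HSP27, is a small heat shock protein (chr7:76302544-76304295, plus strand). It read 67.7, 63.7 and 83.4 TPM at day 0 and 36.0, 47.5 and 36.8 at day 2. It read 17.0, 20.8 and 16.2 TPM at day 3 and 12.1, 14.2 and 15.3 at day 5. No group overlapped another in TPM, but days 3 and 5 overlapped after rescaling. Its log2 fold changes were -0.82, -1.93 and -2.28 (limma adjusted p = 4.3e-04, 4.3e-08 and 4.2e-09) and -0.59, -1.09 and -1.10 after rescaling, all called lower. The last step, from day 3 to day 5 (-0.35), was not called.

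HSPD1, the mitochondrial chaperonin HSP60 (chr2:197486581-197516737, minus strand), read 1022, 1080 and 1039 TPM at day 0 and 494, 508 and 521 at day 2. It read 315, 340 and 284 TPM at day 3 and 198, 216 and 240 at day 5. The groups did not overlap in TPM, but days 2 and 3 did after rescaling. HSPD1 changed by -1.04, -1.74 and -2.26 (SE 0.082, limma adjusted p = 2.2e-11 at day 5), close to HSPA8 at days 2 and 3, and by -0.81, -0.88 and -1.04 after rescaling. Its step from day 3 to day 5 (-0.52) was called on the deposited scale only and was lost without day 3 library 2 (-0.46) or without day 5 library 1 (-0.45).

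HSPE1, the co-chaperonin HSP10 that closes the HSPD1 chamber (chr2:197499994-197503457, plus strand), read 1208, 1328 and 1364 TPM at day 0 and 900, 813 and 974 at day 2. At day 3 it read 1343, 1178 and 1214 TPM and at day 5 1387, 1386 and 1547. Day 2 stood below all other groups, day 3 overlapped day 0, and every day 5 library was above every day 0 library by a small margin. The change at day 2 was -0.54 (limma adjusted p = 1.5e-04), but this call was lost after rescaling (-0.31), without ribosomal protein and mitochondrial transcripts (-0.39) and without day 2 library 2 (-0.47). At day 3 the value was -0.06 on the deposited scale, which turned to 0.80 after rescaling (called higher) and to 0.41 without ribosomal protein and mitochondrial transcripts (not called, by its fold). At day 5 it was 0.15 on the deposited scale, not called, 1.37 after rescaling and 0.87 without those transcripts, both called higher. On the deposited scale 87.0% of all tested features had a lower fold change at day 5 than HSPE1, and 76.3% had a lower one than HSP90AA1.

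The ratio of HSPE1 to HSPD1 within a library was 1.18 to 1.31 at day 0, 1.60 to 1.87 at day 2, 3.47 to 4.27 at day 3 and 6.42 to 7.01 at day 5. The 4 groups did not overlap and each stood above the one before. The mean log2 ratio was 1.53 higher in the 9 treated libraries (exact permutation p = 0.00909, adjusted over 3 ratios 0.0273). This difference kept its sign without any one library, between 1.41 and 1.68. The 3 ratios were chosen with earlier results of these data known, so this p describes the libraries and is no independent support. The treated side also pools days 2, 3 and 5, whose ratios differed. Without any one day 0 library (1.499, 1.53 and 1.58 without libraries 1, 2 and 3) the exact permutation p was 0.0182, the smallest that the remaining 55 choices allow, and the adjusted p of 0.0545 is set by that limit. The adjusted p rose to 0.0727 without day 3 library 1 or 3 (1.503 each) or day 5 library 1 (1.41), 2 (1.43) or 3 (1.43). The HSPE1 value could include reads of near-identical copies. Its 26 pseudogene features summed to 1.80 TPM at day 0 and 2.40 at day 5, at most 0.170% of its own level in any group mean. HSPE1-MOB4, the readthrough gene that shares its exons, was at 4.80 ± 0.803 TPM (SD, n = 3) at day 0 and 10.3 ± 2.31 at day 5 (n = 3).

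For the HSP70 family the ratio of HSPA1A plus HSPA1B to HSPA8 was 0.0219 at day 0, 0.0289 at day 2, 0.0149 at day 3 and 0.0207 at day 5 (geometric means, n = 3). The day 2 libraries were all above day 0 and the day 3 libraries all below it, while day 5 overlapped day 0. Treated libraries differed from day 0 by -0.08 on the log2 scale in the mean (exact permutation p = 0.795, adjusted 0.795), and the sign turned without day 3 library 3 (0.02). Of the 31-base words of HSPA8, 21.4% also occurred in another gene.

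**Figure D4:**
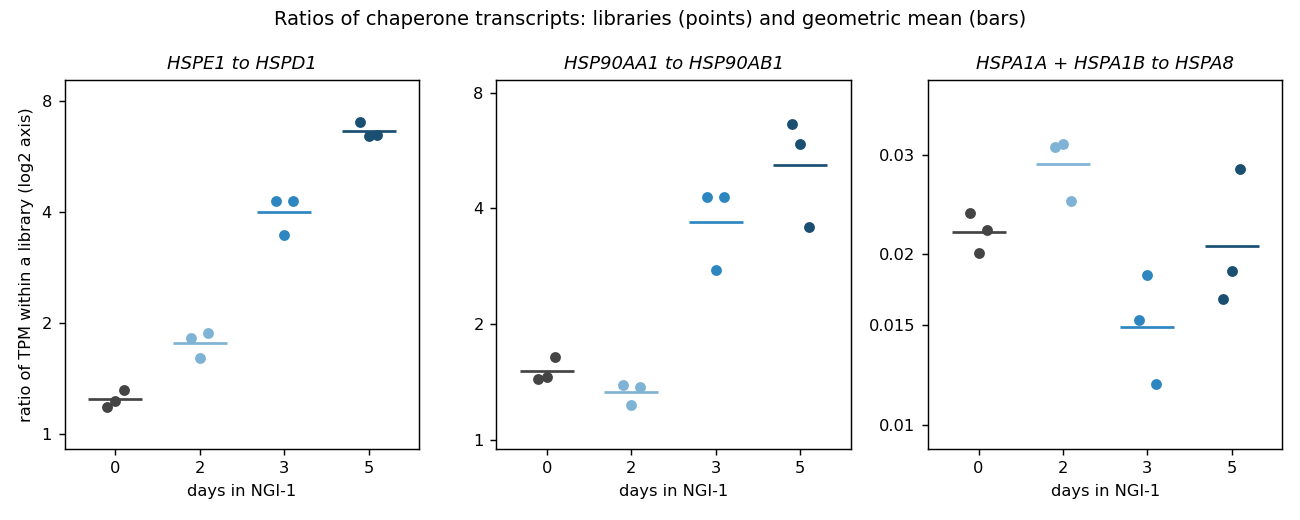
Ratio of TPM within a library (y axis, log2 axis) by days in NGI-1 (x axis) for HSPE1 to HSPD1, HSP90AA1 to HSP90AB1 and HSPA1A plus HSPA1B to HSPA8; points are libraries, 3 per group, and bars are geometric means. The first ratio climbs from 1.24 at day 0 to 6.62 at day 5 with no overlap, the second passes day 0 only at days 3 and 5, and the third shows no lasting direction.

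Across the 12 libraries on the rescaled log2 scale, the tested members fell into lines of unlike shape. Pearson's r was 0.98 between DNAJB1 and HSPH1, 0.99 between HSPH1 and HSPD1 and 0.95 between HSP90AA1 and HSPE1. It was -0.87 between HSPA1B and HSPE1, and on the deposited scale that value was -0.43. These are descriptions, since all libraries share the 4 time groups. Among 5424 other tested features that averaged 10 TPM or more, those most like HSPA8 were ENO1 (r = 0.99) and PGK1 (0.99), both enzymes of glycolysis. HSPB1 was most like GSS (0.99), glutathione synthetase, and MTCH2 (0.98), a protein of the mitochondrial outer membrane. HSPE1 was most like CCDC58 and SNRPG (both r = 0.997), the latter a core protein of the spliceosome. HSPA1A was most like CLPB (0.93), a mitochondrial disaggregase, and NUDT8 (0.92). These 2 values rest on levels of at most 1.02 TPM, below the filter, and on an uncertain split of reads with HSPA1B. SNRPG had 392, 286, 401 and 485 TPM at days 0, 2, 3 and 5, the same dip and return as HSPE1.

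The transcripts of the regulators and other chaperones are given by lists written from general knowledge. At day 5, 69.8% of all tested features were called lower and 7.73% higher (after rescaling 26.9% and 27.5%), and their median was -0.99. At day 5 against day 0, 3 of the 7 tested heat shock factors and regulators were called lower and none higher, a smaller share than over all features, with a median of -0.48. HSF1 went from 20.5 to 7.25 TPM (-1.39, limma adjusted p = 1.4e-07), but after rescaling its change was -0.26 and not called. HSF2, a second factor of the family, stood at 6.90 TPM at day 5 (-0.48, not called), and the sign turned after rescaling (0.62, called higher). NFYA, a subunit of the CCAAT-binding factor NF-Y, had the largest called fall (23.3 to 6.32 TPM, -1.76 and -0.64 after rescaling). After rescaling 2 of the 7 were lower and 4 higher, beside 26.9% and 27.5% of all features.

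The HSP70 and HSP110 relatives were lower in 5 of 5 tested genes (69.8% of all features), 3 of them after rescaling (26.9%), with a median of -2.14 against -0.99 for all. HSPA4, an HSP110 relative of HSPH1, went from 198 to 39.5 TPM (-2.30 and -1.09 after rescaling) and HSPA9, the HSP70 of mitochondria, from 328 to 73.5 TPM (-2.15 and -0.94 after rescaling). Of 13 HSP90 co-chaperones 12 were lower, beside the same 69.8% of all features, and after rescaling 9 were lower and 1 higher, beside 26.9% and 27.5%. Their median was -2.04. FKBP5, an immunophilin partner of HSP90 and a glucocorticoid target, had the largest fall of these (44.2 to 3.36 TPM, -3.41 and -2.33 after rescaling). The 9 HSP70 exchange factors and partners were all lower (69.8% of all features), and 5 were lower and 1 higher after rescaling (26.9% and 27.5%), with a median of -1.74. BAG3, which links HSP70 to autophagy, went from 11.2 to 2.25 TPM (-1.92 and -0.93 after rescaling).

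The J-domain genes sat near the median of all features, with 12 of 15 lower and none higher (69.8% and 7.73% of all features) and a median of -0.99. After rescaling 4 were lower and 4 higher, near the 26.9% and 27.5% of all features. DNAJC9, a J-domain protein that also binds histones, had the largest fall (55.0 to 6.12 TPM, -2.98 and -1.84 after rescaling). In the list of the cytosolic chaperonin TRiC and its helper prefoldin 10 of 14 were lower and 2 higher, a share of lower genes near that of all features, with a median of -1.25, and 4 lower and 4 higher after rescaling (26.9% and 27.5% of all features). TCP1, a TRiC subunit, went from 299.8 to 37.6 TPM (-2.98 and -1.77 after rescaling), while PFDN4, a prefoldin subunit, went from 149.8 to 432 TPM (1.52, and 2.74 after rescaling). Of 18 genes listed as mitochondrial chaperones and proteases 15 were lower (69.8% of all features) and none higher, with a median of -1.85. After rescaling 11 were lower and 4 higher (26.9% and 27.5%). The list also held ATF5, a transcription factor that was among those 4, and it shared HSPA9 and DNAJA3 with other lists. AFG3L2, a protease of the inner membrane, had the largest fall (61.7 to 8.74 TPM, -2.73 and -1.57 after rescaling). Of 9 further small heat shock proteins only HSPB11, an intraflagellar transport subunit despite its name, passed the filter, and it was higher (31.5 to 58.8 TPM, 0.88 and 2.08 after rescaling).

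**Figure D5:**
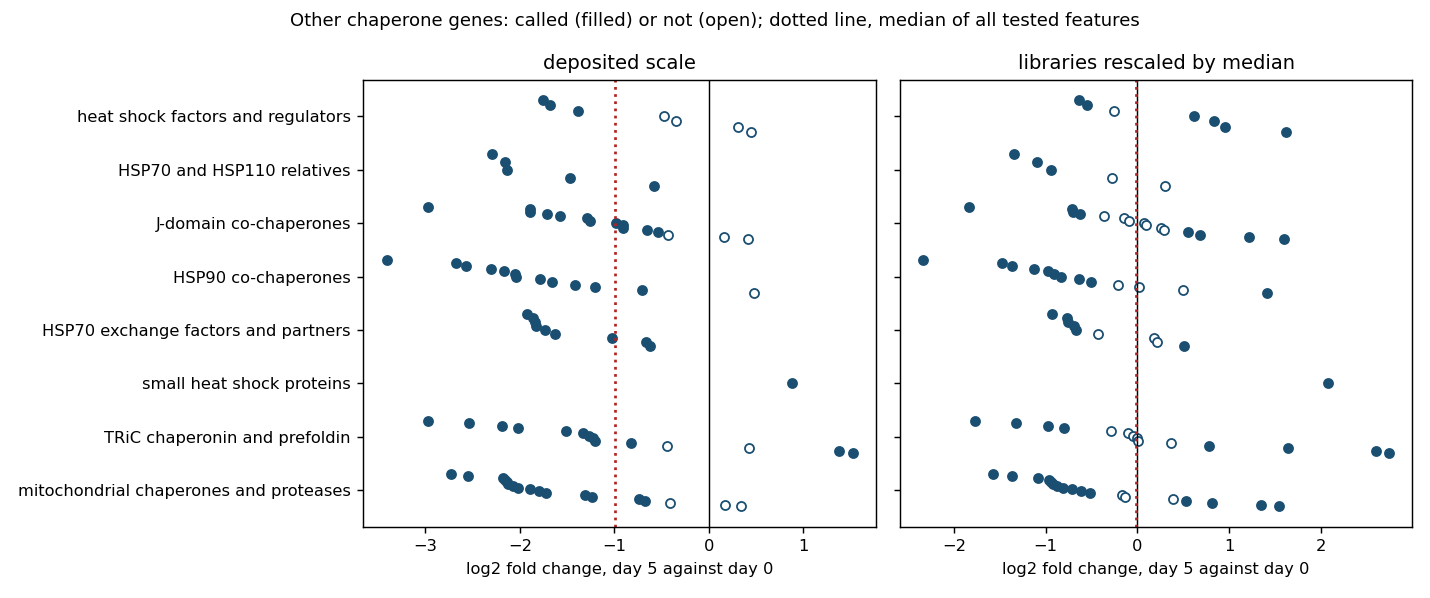
Log2 fold change at day 5 against day 0 (x axis) for the tested genes of 8 lists (y axis), on the deposited scale (left) and after rescaling (right); filled points were called, open points were not, and the dotted line is the median of all tested features. HSP90 co-chaperones and HSP70 relatives lie mostly left of the dotted line, with FKBP5 at -3.41 on the deposited scale, while prefoldin subunit PFDN4 lies furthest right at 1.52.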

How the data were processed

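RNA-seq was analyzed for 12 libraries of MM1S cells, 3 per time point. The authors deposited log2 values of TPM plus 1 per gene symbol. The submitters' processing notes name FastQC, Trimmomatic, STAR, Salmon and hg38, with no versions. The study describes its data in general as means of biological replicates, but the labels do not say that these libraries came from separate cultures. P-values then measure only the spread between these samples, which may be technical, and replicate numbers follow deposit order. The members, lists and ratios were chosen with earlier results of these data known. After the log2 was undone and the filter applied, all 4 groups were fitted at once in limma 3.58.1 (R 4.3.3). The fit used a mean-variance trend, a pseudocount of 1 and two-sided tests. It was tried on simulated data in which few features changed, up and down alike. Its behaviour under a shift of most features in one direction was not tested. Genes were named by a rule: all members, the largest called rise and fall of each list at day 5, HSF1, HSF2, HSPA9, the 2 features most like each of 4 members, and cell type markers. Ratios were compared with scipy 1.17.1, and figures drawn with matplotlib 3.10.9. A planned ratio of HSPA1A to HSPA1B was not formed, since HSPA1A was listed at 0 in 1 library. Alternatives were rescaling, leaving out 126 ribosomal protein and mitochondrial features, a pseudocount of 0.1, no filter, a TPM minimum of 5, no trend, pairwise fits, a fold threshold of 1, pseudogenes added, leaving out each library and, chosen after seeing the data, HSPA1A and HSPA1B summed.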

Additional observations from a re-analysis of the deposited data

How the results depend on the processing

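Of 590 recomputed member changes, 543 kept direction and call, 30 lost and 10 gained the call and 7 turned sign. Under rescaling, HSP90AA1 turned to 0.42 at day 3 and 0.91 at day 5, HSPE1 to 0.80 at day 3, and HSPH1 to 0.042 between days 2 and 3. Without ribosomal protein and mitochondrial transcripts HSP90AA1 turned to 0.031 and 0.40, and HSPE1 to 0.41 at day 3. Rescaling gave 1 member higher at day 3 (23.9% of all features) and 2 at day 5 (27.5%). Between days 2 and 3 it gave 1 lower and 2 higher (13.6% and 14.3%). Between days 3 and 5 it gave 0 lower and 1 higher (2.03% and 4.43%). Leaving out those transcripts gave 1 higher at day 5 (17.6% of all features). It gave 4 lower and 2 higher between days 2 and 3 (33.4% and 7.66%). Between days 3 and 5 it gave 1 lower (3.49%). A fold threshold of 1 gave 3 lower at day 2, 2 lower and 0 higher between days 2 and 3, and 0 lower between days 3 and 5, since fewer changes reach it. The cause of the other shifts was not tested. For the fold threshold of 1 and for the fits without a library, the share of all features called is not given. Those counts are thus not read as results about the members. Leaving out each library gave 1 to 2 members higher between days 2 and 3 and 1 to 6 lower between days 3 and 5. It moved the HSPE1 to HSPD1 difference between 1.41 and 1.68 (adjusted p from 0.0182 to 0.0727, where 0.0545 is the value set by the 55 choices left without a day 0 library) and the HSPA1A plus HSPA1B to HSPA8 difference between -0.15 and 0.022. No paired analysis was possible because the labels carry no replicate numbers. Low values such as those of HSPA1A have no known counting error.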
